A study of Homo sapiens with 18 samples.

Results

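Immediate early genes are switched on within minutes of a growth or stress signal, before any new protein is needed, and their mRNAs are in general among the shortest lived in the cell. The 10 genes described here were taken by Ensembl ID from 60666 IDs in the deposited tables, with symbols as the choice of IDs gives them: FOS, JUN, EGR1, ATF3, DUSP1, IER2, JUNB, KLF6, MYC and FOSL1. Each was listed and tested in all 4 tables. They were examined in U373-MG, an established human glioblastoma line, in which FLAG-tagged protein was precipitated and the RNA that came with it was sequenced (RNA immunoprecipitation, RIP-seq). Of the 3 genotypes, the first carried retrovirally delivered ADAR3 with a mutated R-domain (ADAR3 R-Mutant), the second the wild-type protein (ADAR3 WT) and the third an empty vector with antibiotic resistance only (control). All were grown in medium with G418 and UV-crosslinked at 150 mJ/cm2. Each genotype gave 3 IP and 3 input libraries, 18 in all. The labels do not say whether replicates came from separate cultures or whether the transduced cells were clones, and the amount of ADAR3 in these cells is that of an introduced gene. Glial markers and ADAR3's own gene could not be looked up, because no table used here pairs their symbols with Ensembl IDs.

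ADAR3 is a double-stranded RNA-binding protein of the ADAR family with no detectable editing activity of its own, found mainly in brain, and its arginine-rich R-domain can contact single-stranded RNA. Several of the genes encode parts of AP-1, a transcription factor made of a FOS and a JUN family protein paired through leucine zippers. Early response mRNAs commonly carry AU-rich stretches near their 3' ends that recruit decay factors, so that a pulse of transcription leaves a short pulse of mRNA. The deposited tables measure steady-state recovery only, and mRNA half-lives were not measured.

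IP enrichment is the recovery of an RNA in the IP relative to input, and each IP table is read as the log2 fold change of that recovery between a pair of genotypes. A value of -1 means that the IP held 2-fold less of an mRNA, relative to input and to the other RNAs, in the first genotype. The control carried an empty vector, so its IP is the background recovered without FLAG-tagged ADAR3. A fall against control is thus a smaller share than in that background, and a loss of ADAR3 binding was not tested. Values after ± are the standard errors (SE) of the authors' deposited tables. A gene was called when the ratio of its fold change to its SE passed a two-sided normal test at a Benjamini-Hochberg adjusted p of 0.05 over all tested genes. Counts per library could not be attributed to samples, so the values below are those of each comparison, and library depth is unknown. The deposited mean normalized count of the 10 mRNAs ran between 181 and 2529 in the IP tables and between 279 and 3071 in the input table.

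In the IP of ADAR3 WT against control, 4 of the 10 mRNAs had lower enrichment and 0 had higher enrichment by the normal test. Of all 21121 genes tested, 8.14% were called lower and 5.99% higher. Among the 8064 genes whose mean lay within the range of the early response mRNAs, 13.8% were lower and 9.04% higher. DUSP1, JUNB, FOS and MYC were the 4 called. The median log2 fold change of the 10 was -0.60, against 0.01 for all tested genes and -0.08 for genes within the same range of means. At an unadjusted p under 0.05 the count was 6, all of them lower, where 25.2% of all tested genes passed in either direction. The genes with the lowest and highest values were DUSP1 and EGR1, and their 95% intervals did not overlap; the difference between genes was not tested. Without a filter on the mean FOS was no longer called (normal test adjusted p 0.0720), at an adjusted p of 0.01 DUSP1 and JUNB were the calls left, and with Bonferroni adjustment 0 were. With the statistic rescaled to its spread over all genes 0 were called either, the lowest adjusted p being 0.202, for DUSP1.

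The largest fall was that of DUSP1 (ENSG00000120129), a phosphatase that switches off MAP kinases and so ends the signal that induced it. The gene lies on chromosome 5 between 172768096 and 172771195 (GRCh38.p14, as are all positions here). In the authors' deposited table its log2 fold change in ADAR3 WT over control was -1.29 ± 0.32. Its enrichment was thus 40.9% of that in control, with a 95% interval of 26.5% to 63.0% (normal test adjusted p 0.000971). Only 3.14% of genes with a mean of at least 50 had a lower fold change.

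Among the AP-1 genes the JUN and FOS families were each represented among the called and the uncalled. JUNB (ENSG00000171223; chromosome 19, 12791486 to 12793315), a JUN family partner that often tempers JUN, stood at -1.11 ± 0.32 in the authors' deposited table. That is 46.5% of the control enrichment, with an interval of 29.9% to 72.2% (normal test adjusted p 0.00796). FOS (ENSG00000170345; chromosome 14, 75278828 to 75282230), the archetypal early response gene and the dimer partner of JUN, had -0.94 ± 0.34 in the authors' deposited table, or 52.3% (interval 33.1% to 82.6%, normal test adjusted p 0.0410). JUN itself (ENSG00000177606; chromosome 1, 58780791 to 58784047) had -0.71 ± 0.28 in the authors' deposited table. Its interval of -1.26 to -0.15 lay below 0, but it did not pass after adjustment (normal test adjusted p 0.0765, unadjusted 0.0125). FOSL1 (ENSG00000175592; chromosome 11, 65892049 to 65900545), a FOS relative that is induced later, had -0.13 ± 0.28 in the authors' deposited table, with an interval of -0.68 to 0.43. ATF3 (ENSG00000162772; chromosome 1, 212565407 to 212620777), a stress-induced leucine zipper protein that can pair with JUN proteins, had 0.03 ± 0.32 in the authors' deposited table, with an interval of -0.61 to 0.66.

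Of the other genes MYC alone was called, and neither zinc finger factor was. MYC (ENSG00000136997), on chromosome 8, encodes a growth-promoting transcription factor, and its log2 fold change in the authors' deposited table was -0.81 ± 0.27. That is 57.1% of the control enrichment, with an interval of 39.7% to 82.2% (normal test adjusted p 0.0235). KLF6 (ENSG00000067082; chromosome 10, 3775996 to 3785209), a Krüppel-like zinc finger factor, had -0.50 ± 0.23 in the authors' deposited table, which was not called (normal test adjusted p 0.135, unadjusted 0.0282). IER2 (ENSG00000160888; chromosome 19, 13150411 to 13154911) had -0.23 ± 0.32 in the authors' deposited table, with an interval of -0.86 to 0.39. EGR1 (ENSG00000120738; chromosome 5, 138465479 to 138469303), a zinc finger factor induced through serum response elements, had 0.04 ± 0.25 in the authors' deposited table. Its interval of -0.45 to 0.52 left out a 2-fold difference in either direction. The same was so for KLF6, IER2, FOSL1 and ATF3, that is for 5 of the 10, against 34.3% of all tested genes. All tested genes include those of lower mean. The median SE of the 10 was 0.30, against 0.26 for genes within the same range of means. For DUSP1, JUNB, FOS, MYC and JUN a difference of at least 2-fold below control remained inside the interval.

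**Figure D1:**
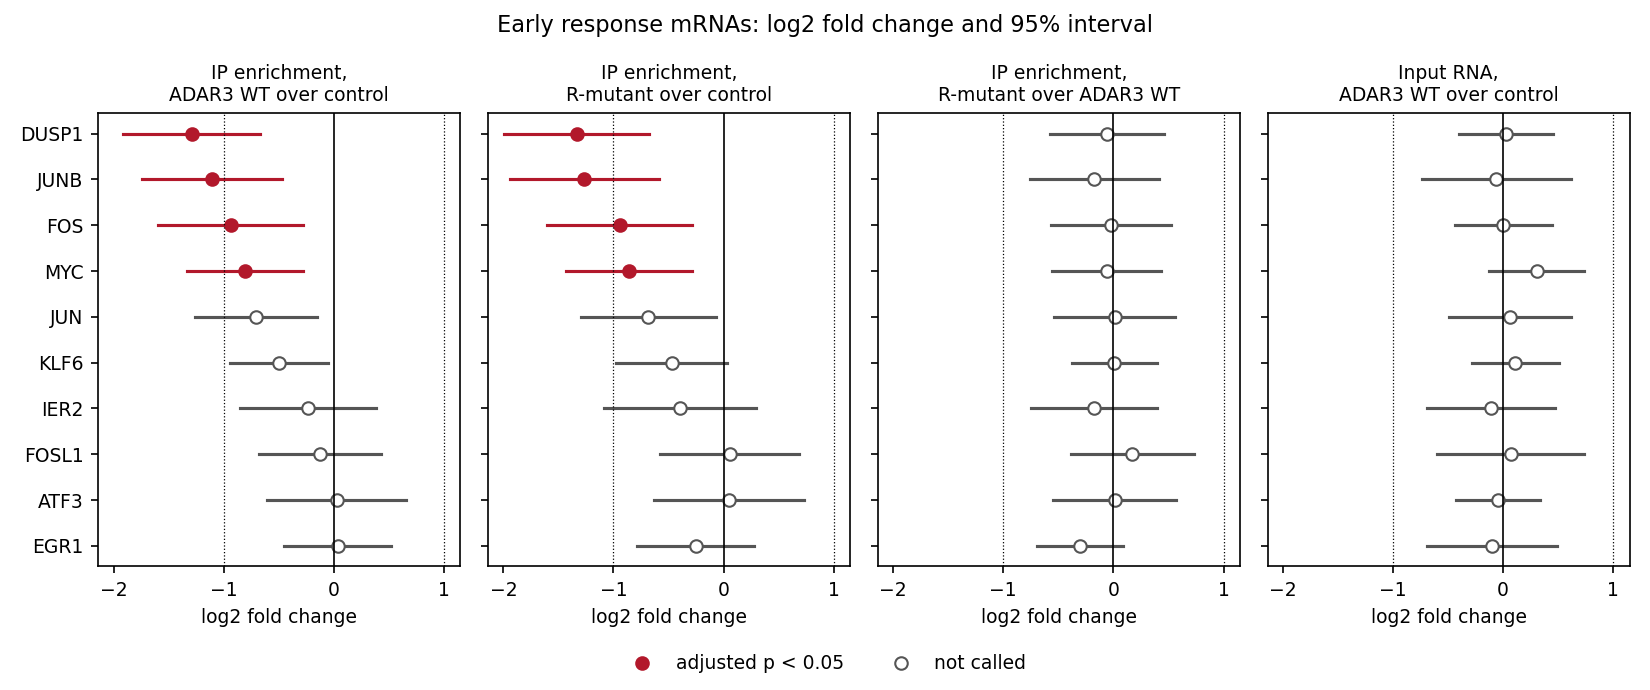
Log2 fold change (horizontal axis) of the 10 early response mRNAs in the 4 deposited comparisons, with 95% intervals as lines, genes ordered by ADAR3 WT over control and dotted lines at a 2-fold difference. Filled red points passed the normal test at an adjusted p of 0.05: DUSP1, JUNB, FOS and MYC lie below 0 in both comparisons with control, and both right-hand panels hold open points alone (not called).

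Below are the stretches just before the start sites of DUSP1, JUNB and FOS, the called genes with the largest falls, and of uncalled EGR1. They are RefSeq sequences (GRCh38.p14), the 150 bases before the annotated start, written 5′ to 3′ along the gene's strand, and capitals mark matches to a TATA box (TATAAA), a cyclic AMP response element (CRE, TGACGTCA) or a CArG box, the core of the serum response element. DUSP1 is chr5:172771196-172771345 on the minus strand, JUNB chr19:12791336-12791485 on the plus strand, FOS chr14:75278678-75278827 on the plus strand and EGR1 chr5:138465329-138465478 on the plus strand.
DUSP1: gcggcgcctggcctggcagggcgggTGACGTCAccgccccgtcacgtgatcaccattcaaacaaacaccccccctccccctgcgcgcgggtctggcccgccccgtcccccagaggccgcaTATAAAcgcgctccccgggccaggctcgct
JUNB: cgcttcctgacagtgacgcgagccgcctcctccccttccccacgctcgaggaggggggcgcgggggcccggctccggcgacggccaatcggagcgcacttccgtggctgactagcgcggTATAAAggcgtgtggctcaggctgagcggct
FOS: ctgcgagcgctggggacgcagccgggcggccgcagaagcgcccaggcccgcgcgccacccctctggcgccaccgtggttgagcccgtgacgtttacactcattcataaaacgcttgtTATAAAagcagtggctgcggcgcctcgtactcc
EGR1: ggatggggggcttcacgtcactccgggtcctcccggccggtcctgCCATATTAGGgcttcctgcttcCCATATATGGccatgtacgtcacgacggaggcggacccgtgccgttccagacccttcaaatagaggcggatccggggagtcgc

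Windows from 250 bases before to 50 after an annotated start were used for 8 of the 10 genes. These gave 9 windows in all, because ATF3 has 2. Windows on chromosome 8, which holds MYC, were left out, and FOSL1 had no full window. On both strands, the TATA box letters were found in 4 of the 9 windows, against 11.5% of 35116 windows of all genes. DUSP1, JUNB and FOS carried them with the first base 30, 31 and 33 bases before the start. In the ATF3 window at its downstream start they lay 230 bases before it. The CRE letters were found in DUSP1 alone, 125 bases before the start, against 1.85% of all windows. Only this exact sequence was counted, and variants of it were not searched in any window. Within these windows EGR1 alone held CArG boxes, a pair beginning 105 and 83 bases before the start, against 1.29% of all windows. Sequence farther from the start sites was not searched, for this or any other motif. The AP-1 site (TGANTCA) was found in 0 of the 9 windows, against 7.71% of all windows, and the ETS core (CCGGAA), of which the serum response factor's partners bind a form, in IER2 alone, against 17.2%. None of these motifs overlapped another. The windows of JUN, KLF6, IER2 and ATF3, none of them called, are not printed, and those of JUN and KLF6 held none of these motifs. The matches describe the letters in these windows, and the RIP data hold no measurement of the promoters. Whether the motifs go with IP enrichment was not tested.

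**Figure D2:**
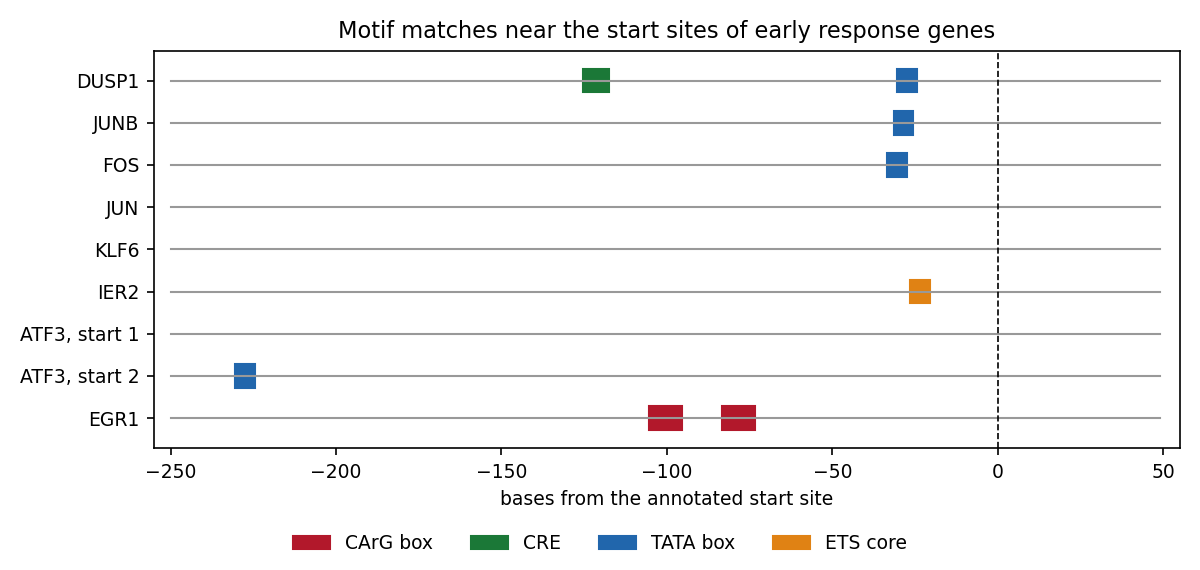
Matches to 4 motifs within 250 bases before and 50 bases after the annotated start sites (horizontal axis, bases from the start, dashed line at the start) of 8 early response genes, ordered from the lowest IP enrichment in ADAR3 WT over control at the top. DUSP1, JUNB and FOS each hold a TATA box match near 30 bases before the start, and EGR1 holds both CArG box matches.

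In the IP of the R-Mutant against control, again 4 of the 10 mRNAs were called lower and 0 higher by the normal test, while 7.95% of the 21120 tested genes were lower and 5.38% higher. Within the range of the early response means these shares were 13.3% and 8.19%. The calls were those of DUSP1, JUNB, FOS and MYC. The labels give a single set of control libraries for both comparisons, so their calls are not independent of each other. The median log2 fold change was -0.58, against 0.03 for all tested genes and -0.09 within the same range of means. At an unadjusted p under 0.05 there were 5, all lower, where 24.8% of all tested genes passed in either direction. Without a filter on the mean, and at an adjusted p of 0.01, DUSP1 and JUNB were the calls left, and with Bonferroni adjustment there were 0. With the statistic rescaled to its spread over all genes there were also 0, the lowest adjusted p being 0.241, for DUSP1.

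For R-Mutant over control, the log2 fold change of DUSP1 was -1.34 ± 0.33 in the authors' deposited table, or 39.6% of the control enrichment (interval 25.2% to 62.4%, normal test adjusted p 0.00135). JUNB had -1.26 ± 0.35 in the authors' deposited table, or 41.6% (interval 26.0% to 66.6%, normal test adjusted p 0.00410). FOS stood at -0.94 ± 0.33 in the authors' deposited table, or 52.0% (interval 33.0% to 81.9%, normal test adjusted p 0.0395). MYC stood at -0.86 ± 0.29 in the authors' deposited table, or 55.3% (interval 37.2% to 82.2%, normal test adjusted p 0.0302). The order of these 4 genes by fold change was that seen with ADAR3 WT, but neighbours in it differed by less than 1 SE.

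JUN was next at -0.68 ± 0.31 in the authors' deposited table, which was not called (normal test adjusted p 0.137, unadjusted 0.0282). KLF6 had -0.47 ± 0.26 and IER2 -0.40 ± 0.35 in the authors' deposited table. Their adjusted p by the normal test was 0.239 and 0.540, and neither interval left out 0. EGR1 had -0.25 ± 0.27 in the authors' deposited table, with an interval of -0.79 to 0.28. ATF3 and FOSL1 were nearest to no difference, at 0.05 ± 0.35 and 0.06 ± 0.32 in the authors' deposited table. A 2-fold difference lay outside the interval for 4 of the 10, EGR1, ATF3, KLF6 and FOSL1, against 31.5% of all tested genes. The median SE of the 10 was 0.33, against 0.28 for genes within the same range of means.

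**Figure D3:**
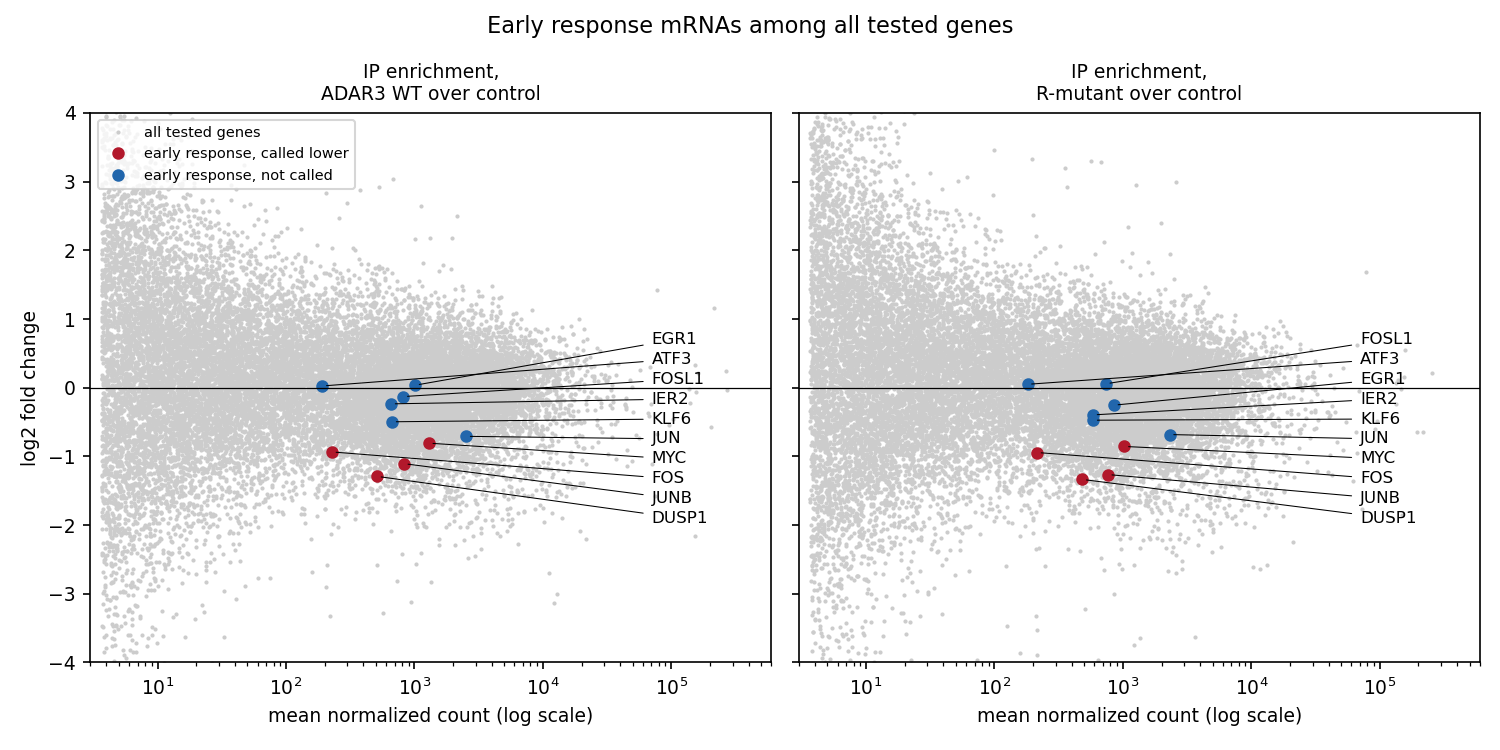
Log2 fold change of IP enrichment (vertical axis) against mean normalized count (horizontal axis, log scale) for all tested genes (grey) and the 10 early response mRNAs, for ADAR3 WT over control on the left and R-mutant over control on the right; genes beyond a log2 fold change of 4 in either direction lie outside the axis. The 4 called mRNAs (red) lie between -0.81 and -1.29 on the left and between -0.86 and -1.34 on the right, in the lower part of the grey cloud.

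Whether the R-domain mutation changed the recovery of these mRNAs is addressed, within the precision given below, by R-Mutant over ADAR3 WT. By the normal test 0 of the 10 were called, and 1 of all 23385 tested genes (0.00428%) was called. At an unadjusted p under 0.05 the count was also 0, where just 0.624% of all tested genes passed, so these zeros are near the background. With SE that match the spread, about 5% would pass even if no gene differed. The ratio of fold change to SE had a standard deviation of only 0.66 over all tested genes. The normal test was therefore strict in this comparison, and its zeros say little about these mRNAs. The 10 log2 fold changes ran between -0.30 and 0.17, with a median of -0.04 against -0.02 for all tested genes. The median SE of the 10 was 0.28, against 0.22 for genes within the same range of means. Every one of the 10 intervals left out a 2-fold difference in either direction, as did those of 55.2% of all tested genes, whatever their mean. The lowest bound among them was -0.76, for JUNB, and the highest 0.73, for FOSL1. Changes inside these bounds could not be told from none at this precision.

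The 4 mRNAs lower against control stood close to 0 between the ADAR3 proteins. DUSP1 had -0.06 ± 0.26 (interval -0.57 to 0.46), FOS -0.02 ± 0.28 (interval -0.57 to 0.52) and MYC -0.06 ± 0.25 (interval -0.55 to 0.43) in the authors' deposited table. JUNB had -0.17 ± 0.30 in the authors' deposited table, or 88.7% of the ADAR3 WT enrichment. JUN, ATF3 and KLF6 had 0.01 ± 0.28, 0.01 ± 0.28 and 0.01 ± 0.20 in the authors' deposited table. The lowest value was that of EGR1, -0.30 ± 0.20 in the authors' deposited table, or 81.1% (interval 61.9% to 106%, normal test adjusted p 1.00, unadjusted 0.128). Its fold change here lay below 96.0% of those of genes with a mean of 50 or more. FOSL1 stood at the other end with 0.17 ± 0.29 in the authors' deposited table, above 92.0% of those genes (unadjusted normal test p 0.545), and IER2 had -0.17 ± 0.29. All 10 intervals in this comparison included 0.

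In the input RNA of ADAR3 WT against control, the early response mRNAs gave no call. By the normal test 0 of the 10 passed, and 0 passed the authors' adjusted p, while 0.289% of 20411 tested genes were called, 0.103% higher and 0.186% lower. At an unadjusted p under 0.05 the count was 0 as well, against 2.92% of all tested genes. That share too is under the 5% that SE matching the spread would give without any difference, so the test was strict here. Their median log2 fold change was 0.01, against 0.03 for all tested genes. Their median SE was 0.25, against 0.22 for genes within the range of their input means. All 10 intervals left out a 2-fold difference, as did those of 66.8% of all tested genes, whatever their mean. The highest value was that of MYC, 0.30 ± 0.22 in the authors' deposited table, or 123% of control input (interval 91.6% to 166%, unadjusted normal test p 0.166). It lay above 95.6% of genes with a mean of at least 50. KLF6 followed with 0.11 ± 0.20 in the authors' deposited table. The lowest were IER2 and EGR1 with -0.11 ± 0.30 and -0.10 ± 0.30 in the authors' deposited table. DUSP1 had 0.03 ± 0.22, JUNB -0.06 ± 0.34 and FOS 0.00018 ± 0.22 in the authors' deposited table. JUN and FOSL1 had 0.06 ± 0.28 and 0.07 ± 0.34, and ATF3 -0.05 ± 0.19, in the authors' deposited table. In bulk RNA, a change in the number of responding cells and a change in mRNA per cell cannot be told apart.

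Input and IP enrichment can be set side by side for the called genes, with the limit that the tables were normalized separately. Adding the input log2 fold change to that of IP enrichment gives, under the reading used here, the difference of the IP fraction itself between ADAR3 WT and control. This sum was -1.26 for DUSP1, -1.17 for JUNB, -0.93 for FOS and -0.50 for MYC. For MYC the IP enrichment of -0.81 thus includes the input value of 0.30, whose own interval included 0. The sums carry no error, because the covariance of the tables is unknown.

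The authors' own test in the IP tables is a likelihood ratio test over several terms, which large shares of all genes passed. The authors' adjusted p at 0.05 was passed by 9 of the 10 in each of the IP tables. For ADAR3 WT over control 43.0% of all tested genes passed it, against control the R-Mutant gave 40.8%, and R-Mutant over ADAR3 WT gave 51.1%. Among genes within the range of the early response means, these shares were 63.6%, 60.8% and 78.0%. The exception was IER2, whose adjusted p in the authors' deposited tables was 0.421, 0.182 and 0.230 in the same order. EGR1 had the largest statistic of the 10 in all 3 authors' deposited tables, at 72.8, 78.8 and 139, though its fold change was not called in any of them. DUSP1 was second in R-Mutant over ADAR3 WT with 120 in the authors' deposited table, where its fold change was -0.06. That test covers more than the single fold change printed beside it.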

How the data were processed

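Per the submitters' processing notes, STAR 2.7.7a, featureCounts, DESeq2 and GRCh38 were used; the sources used here do not give the annotation or the model. Per the labels' protocols, the strand-specific libraries followed ribosomal RNA depletion and had 15 PCR cycles. Of the 4 deposited tables, each gives, per the file headers, a mean signal (mean of normalized counts), a log2 fold change with its SE (entered as a score), a test statistic (a score) and p-values. In the 3 IP tables the deposited p-values are those of a chi-square test on 7 degrees of freedom (relative tolerance 0.001; 95.8% of compared IDs or more), and in the input table the deposited statistic is the log2 fold change over its SE. The deposited log2 fold changes of the IP tables were read as ratios of IP over input, which the labels do not state; for genes with an input mean under 10 their slope on the input fold change was -0.79 for ADAR3 WT over control and 0.48 for R-Mutant over ADAR3 WT, as an input denominator would give.

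Computed here were the normal test, 95% intervals (normal), Benjamini-Hochberg adjustment over genes with a deposited adjusted p, and motif matches. All 10 genes are named in every comparison. Members and lists were chosen with earlier results of these data known. The 6 per-library columns of the input table match no label and were not used. The 6 other gene lists and 5 marker lists were not used, since 0 reference entries carry an Ensembl ID. The p-values measure only the spread between libraries, which may be technical. Tools were scipy 1.17.1, numpy 2.4.6, pandas 2.3.3 and matplotlib 3.10.9 under Python 3.11.15. The test was run on simulated fold changes drawn with the deposited SE. Such a check covers the calculation and cannot show whether those SE match the real spread.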

Additional observations from a re-analysis of the deposited data

How the results depend on the processing

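No paired analysis was possible because no per-library column could be matched to a label, and for the same reason leaving out each replicate and other count models were not run. For ADAR3 WT over control, the 4 mRNAs called lower became 2 (DUSP1 and JUNB) at an adjusted p of 0.01 and when a 2-fold difference was also required, and 0 with Bonferroni adjustment or with the statistic rescaled to its spread over all genes, a spread that holds any real differences too. For R-Mutant over control they became 2 (DUSP1 and JUNB) under those first settings and also without a filter on the mean, where FOS (normal test adjusted p 0.0694) and MYC (0.0531) were lost, and 0 under Bonferroni or rescaling. Without the filter, FOS was also lost for ADAR3 WT (normal test adjusted p 0.0720). By the authors' adjusted p, 2 members were called higher and 7 lower in both comparisons with control, and 4 higher and 5 lower in R-Mutant over ADAR3 WT; that test covers more terms than the fold change. The filter at a mean of at least 50 and centring left the 4 calls in place in both comparisons. In input, the fold change of FOS turned to -0.030 with centring and to -0.024 with rescaling, and that of DUSP1 to -0.0026 with centring; none of these was called. In both comparisons with control, JUN, KLF6, EGR1, ATF3 and FOSL1 were called under the authors' adjusted p alone.

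Over all genes, the 1266 higher and 1720 lower calls for ADAR3 WT over control became 4067 and 5013 by the authors' adjusted p, 711 and 1112 at 0.01, 641 and 917 at a log2 fold change of at least 1, 116 and 312 with rescaling, and 199 and 440 with Bonferroni. For R-Mutant over control, 1136 and 1678 became 3768 and 4858, 597 and 1084, 589 and 1043, 60 and 275, and 139 and 416 in the same order. For R-Mutant over ADAR3 WT, 0 and 1 became 5034 and 6913 by the authors' adjusted p and 33 and 45 with rescaling, and the lower count was 2 at a mean of at least 50. In input, 21 and 38 became 123 and 366 with rescaling and 10 and 14 with Bonferroni, and the lower count was 23 at 0.01. Stricter thresholds lower counts by construction; the cause of the other moves was not tested. Depth per library is unknown, and the SE of 0.20 to 0.35 in the IP tables sets what could be detected.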

Other observations

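The 3 IP fold changes of each early response mRNA were linked almost exactly. Adding R-Mutant over ADAR3 WT to ADAR3 WT over control and subtracting R-Mutant over control left between -0.0141 and -0.0119 on the log2 scale for all 10 genes, and a median of -0.0135 over 20804 genes tested in all 3 tables, with 5% of genes below -0.0640 and 5% above 0.0157. The 3 tables therefore hold only 2 separate values for each of these mRNAs, and the small offset is shared by the 10. For DUSP1 the sum was -1.35 against -1.34 in the table, and for EGR1 it was -0.27 against -0.25.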
